A study of Homo sapiens with 23 samples.

Results

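Loops with identical bins are the chromatin loops that were listed between exactly the same pair of 5 kb bins in both of the HiChIP lists of the series, the list labelled T0 and the list labelled T30. Members were the rows whose chromosomes and bin starts were the same at both ends in both lists. They were thus selected on the authors' q-value, which is computed from contacts, in both libraries, and their being in both lists is not a finding. The rule found 608 such loops. They made up 8.59% of the 7075 loops of T0 (95% Clopper-Pearson interval 7.95 to 9.27) and 6.34% of the 9591 loops of T30 (5.86 to 6.85). They held 13536 of the 127457 contacts listed in T0, or 10.6%, and 9021 of the 135538 listed in T30, or 6.66%. A contact is a read pair that joins the 2 bins of a loop. Both lists came from T47D, an established human breast cancer line of luminal type that carries the progesterone receptor, with an antibody against that receptor per the labels. Before treatment the cells were kept in medium with hormone-stripped serum and then without serum. T0 carries no agent in its labels. The title of the T30 library has PR5020, read here as the receptor together with R5020, a synthetic progestin. The time unit and the dose of these libraries are not stated in their labels. Each condition was 1 library, so no difference between the lists has a replicate check. Intervals cover counting error only, and they treat loops as independent although loops can share an end. Sequencing depth beyond the listed contacts is unknown.

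HiChIP cuts and rejoins chromatin in place, so that pieces of DNA which lie close together in the nucleus become 1 molecule, and then pulls down the molecules bound by a protein. A listed loop therefore reflects both contact between its ends and enrichment by the antibody. The progesterone receptor is a nuclear receptor that binds DNA when hormone is present and acts mostly at enhancers far from the genes it controls. Loops between such enhancers and promoters are the usual way in which distant sites are tied to genes. Because a loop enters a list only when its contacts pass the authors' q-value, being listed in both depends on contacts in both. The contacts of the members are therefore described here without a test of membership.

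Of the loops with identical bins, 12 joined the start sites of protein-coding genes at both ends, and 161 had a start site at 1 end. Start sites were taken from the RefSeq promoter table, which held 15813 of the 19974 genes, so these counts are low. The bin in CCND1 at 69640001, for example, holds the lower end of the gene, at 69641156, but no start site of that table. The windows just before 8 of the counted start sites are printed to show the kind of sequence that these ends hold. FAM43A, a gene of little-known function, has its start in the bin with most identical loops outside GSE1 and C16orf74. BCL6, a transcriptional repressor, and GATA3, a transcription factor of luminal breast cells, have the longest identical loops at a gene. PIK3CA, the catalytic subunit of a lipid kinase, and ZNF639, a zinc finger gene, are the ends of a single loop. NR6A1, an orphan nuclear receptor, and WDR38, a WD repeat gene, are the ends of another. CLDN4 codes for a claudin of epithelial tight junctions. The sequences are the 250 bases before the RefSeq start site in GRCh38.p14, 5′ to 3′ on the strand of the gene. They lie at chr3:194685633-194685882 (plus strand, FAM43A), chr3:187745469-187745718 (minus, BCL6), chr10:8045083-8045332 (plus, GATA3), chr3:179148107-179148356 (plus, PIK3CA), chr3:179322626-179322875 (plus, ZNF639), chr9:124771312-124771561 (minus, NR6A1), chr9:124853210-124853459 (plus, WDR38) and chr7:73830746-73830995 (plus, CLDN4). Capitals mark matches to any of the 4 motifs searched on both strands: the progesterone receptor motif TGTTCT, the forkhead motif TGTTTAC, the AP-1 motif TGANTCA and the GC box GGGCGG.
FAM43A: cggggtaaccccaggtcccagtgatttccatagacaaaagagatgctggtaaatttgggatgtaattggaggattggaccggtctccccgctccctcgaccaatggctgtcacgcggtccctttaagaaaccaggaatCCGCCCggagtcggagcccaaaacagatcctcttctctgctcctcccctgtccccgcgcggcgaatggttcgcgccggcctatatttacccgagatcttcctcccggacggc
BCL6: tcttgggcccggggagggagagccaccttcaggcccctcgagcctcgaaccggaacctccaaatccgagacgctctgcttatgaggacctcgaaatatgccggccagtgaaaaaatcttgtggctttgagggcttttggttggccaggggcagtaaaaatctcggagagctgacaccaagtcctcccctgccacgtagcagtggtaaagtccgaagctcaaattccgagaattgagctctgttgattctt
GATA3: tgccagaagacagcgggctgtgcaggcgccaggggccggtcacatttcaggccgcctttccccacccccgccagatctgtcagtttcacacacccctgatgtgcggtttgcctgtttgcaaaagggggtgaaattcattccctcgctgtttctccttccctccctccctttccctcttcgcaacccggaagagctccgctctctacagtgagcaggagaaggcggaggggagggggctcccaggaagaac
PIK3CA: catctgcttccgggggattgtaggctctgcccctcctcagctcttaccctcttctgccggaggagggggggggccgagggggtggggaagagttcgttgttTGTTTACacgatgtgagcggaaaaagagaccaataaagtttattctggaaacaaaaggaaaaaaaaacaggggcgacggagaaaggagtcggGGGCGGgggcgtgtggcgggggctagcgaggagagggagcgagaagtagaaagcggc
ZNF639: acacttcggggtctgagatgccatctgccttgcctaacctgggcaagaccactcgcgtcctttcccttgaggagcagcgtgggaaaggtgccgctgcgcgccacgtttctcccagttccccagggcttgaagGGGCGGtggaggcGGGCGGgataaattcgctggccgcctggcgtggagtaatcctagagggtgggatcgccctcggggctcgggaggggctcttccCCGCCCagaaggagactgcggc
NR6A1: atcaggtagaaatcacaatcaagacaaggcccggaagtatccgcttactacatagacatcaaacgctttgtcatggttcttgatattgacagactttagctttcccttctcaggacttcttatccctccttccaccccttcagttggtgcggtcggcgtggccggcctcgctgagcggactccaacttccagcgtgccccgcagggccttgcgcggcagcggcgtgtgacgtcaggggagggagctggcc
WDR38: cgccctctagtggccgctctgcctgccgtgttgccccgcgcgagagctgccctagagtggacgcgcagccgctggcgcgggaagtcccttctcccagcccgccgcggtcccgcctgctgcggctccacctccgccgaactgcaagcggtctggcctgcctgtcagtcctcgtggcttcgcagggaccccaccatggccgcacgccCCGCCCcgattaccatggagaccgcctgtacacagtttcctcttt
CLDN4: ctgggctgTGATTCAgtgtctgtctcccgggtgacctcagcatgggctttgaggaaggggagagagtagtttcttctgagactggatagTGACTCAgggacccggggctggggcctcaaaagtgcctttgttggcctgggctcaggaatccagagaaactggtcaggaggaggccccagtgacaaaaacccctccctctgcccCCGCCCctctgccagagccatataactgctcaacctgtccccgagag

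The GC box, the letters bound by Sp-family factors, was the most common of the 4 motifs, both at these ends and over all windows. It matched 1 time in the windows of FAM43A, PIK3CA, WDR38 and CLDN4 and 3 times in that of ZNF639. The forkhead letters matched 1 time, at PIK3CA, and the AP-1 letters 2 times, at CLDN4. The receptor motif had no match in the 8 windows. Over all 222 windows, of 181 genes, that lay in a bin of an identical loop, the GC box was present in 158, or 71.2% (64.7 to 77.0). It was present in 53.7% of all 22156 windows of protein-coding genes, in 63.5% of the 1859 windows at any T0 loop and in 67.2% of the 2007 at any T30 loop. The interval at identical loops held the T30 value, and the other values lay below it. The receptor motif was present in 7.66% of the windows at identical loops (4.52 to 12.0) and in 9.82% of all windows. The forkhead motif was in 1.80% and 2.46%, and the AP-1 motif in 4.05% and 5.36%, and both intervals held the value of all windows. Windows cover only sequence before a start site, and a match does not show that a factor was bound.

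Just outside the rule lay many near misses. In T0, 1216 loops (17.2%) had their nearest T30 loop 1 bin away, that is with the further end shifted by 5 kb, and 749 had it 2 bins away. Medians of T0 contacts were 20 for identical loops, 19 at 1 bin and 16 at 2 bins. The medians thus differed by 1 contact across the edge of the rule. In T30, 1211 loops lay 1 bin away and 812 lay 2 bins away, with median contacts of 13 for identical loops and 12 for both. For 3421 T0 loops (48.4%) and 5743 T30 loops (59.9%) the nearest loop of the other list was more than 5 bins away. Many loops without a match nevertheless used bins that the other list also used. Both bins of 1458 T0 loops appeared somewhere in T30, and 608 of these, or 41.7%, were joined to each other there. The other 850 had both bins in use in T30 with other partners. Of the 1261 T30 loops with both bins in use in T0, 48.2% were joined to each other in T0.

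Identical loops had a median span of 145 kb (quartiles 78.75 and 260 kb) and ran from 20 to 1970 kb. Loops without an identical match had a median span of 195 kb in T0 and 75 kb in T30, so the members lay between the lists. Their share followed span in opposite directions in the lists. Of T0 loops, it was 18.3% (14.5 to 22.7) at 20 to 50 kb and 4.58% (3.19 to 6.34) at 500 to 1000 kb. Of T30 loops, it was 2.18% (1.69 to 2.77) at 20 to 50 kb and 12.5% (8.78 to 17.0) at 500 to 1000 kb. The plot of shares by span shows the crossing, which lies between the classes of 100 to 200 and 200 to 500 kb. The class of 20 to 50 kb held 360 loops in T0 and 3024 in T30, so the same 66 members are a large share of the former and a small share of the latter. T0 also listed 574 loops under 20 kb, and T30 listed none, so that no loop of this length could be a member.

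**Figure D1:**
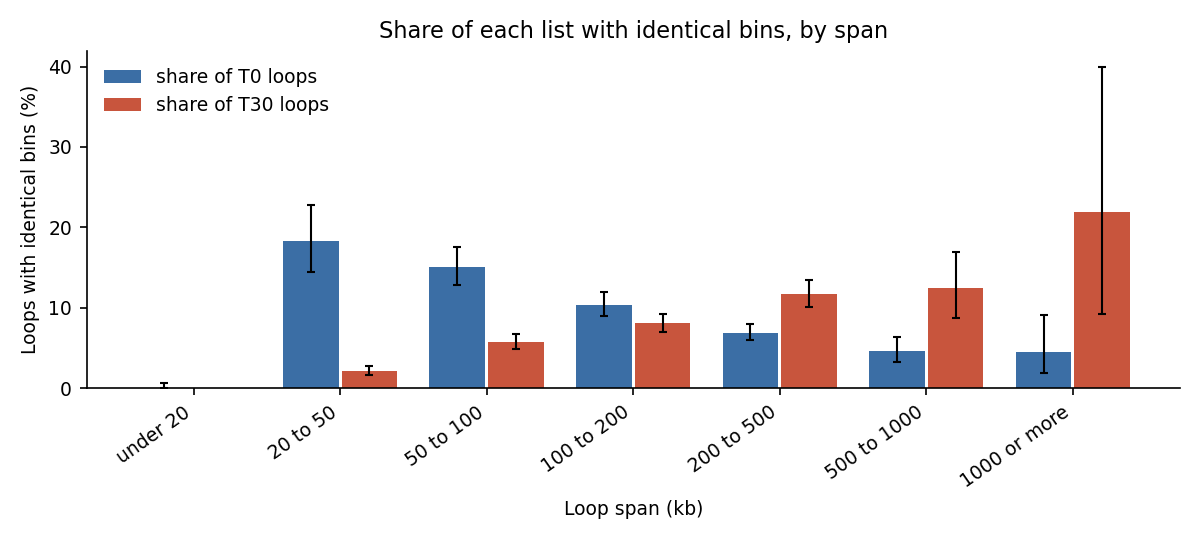
Share of the loops of T0 (blue) and of T30 (red) that have identical bins in both lists, in percent (vertical axis), by loop span in kb (horizontal axis); bars are shares and lines are 95% Clopper-Pearson intervals. From 20 to 50 kb up to 500 to 1000 kb the T0 share goes from 18.3% to 4.58% and the T30 share from 2.18% to 12.5%; T30 lists no loop under 20 kb, so that class has no red bar.

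Identical loops had a higher median of contacts than other loops of the same span in every class of both lists. In T0 the medians of identical and other loops were 30 and 25 contacts at 20 to 50 kb, 24 and 18 at 50 to 100 kb, 20 and 15 at 100 to 200 kb, 16 and 12 at 200 to 500 kb, and 13 and 9 at 500 to 1000 kb. In T30 they were 18.5 and 17, 14 and 12, 13 and 11, 12 and 10, and 10 and 9 in the same classes. The distance between identical and other loops was thus 4 to 6 contacts in T0 and 1 to 2 in T30 for these classes. The quartile ranges overlapped in all of them, as the plot of contacts by span class shows. Of the 608 loops, 474 (78.0%, 74.5 to 81.2) lay above the median of the other T0 loops of their class, and 385 (63.3%, 59.4 to 67.2) lay above that of the other T30 loops. As the list requires contacts to pass a threshold in both libraries, this is a description of the members and was not tested.

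**Figure D2:**
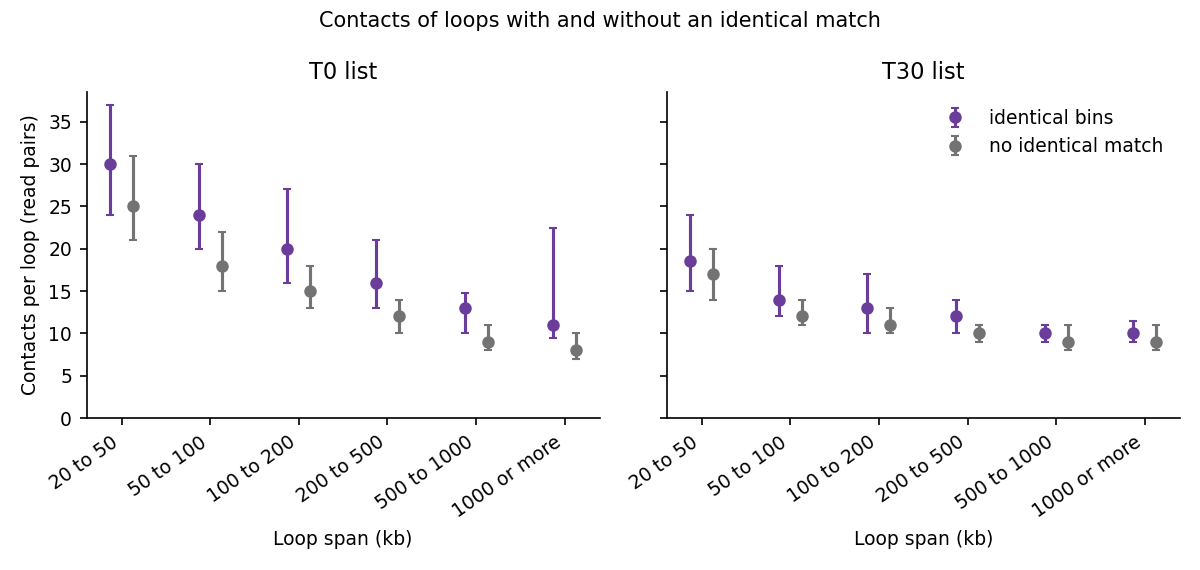
Median contacts per loop in read pairs (vertical axis, from 0) by span class in kb (horizontal axis) for loops with identical bins (purple) and loops without an identical match (grey), in T0 (left) and T30 (right); lines run from the lower to the upper quartile. Purple medians lie above grey medians in every class, by 5 contacts at 20 to 50 kb in T0 and by 1.5 in T30.

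The same could be seen from the side of the contacts. With the loops of each span class ranked into 5 groups by contacts, 3.01% of the T0 loops in the lowest group had identical bins and 22.6% in the highest. In T30 these shares were 3.05% and 13.1%. Among loops that had any loop of the other list within 2 bins, the share that was exactly identical also differed along the ranking, from 16.4% in the lowest group to 30.6% in the highest in T0 and from 17.5% to 31.7% in T30. Many members were part of a cluster that the authors had merged from adjacent contacts. In T0, 359 of them (59.0%) were in such a cluster, against 31.4% of other loops weighted to the members' spans. In T30 it was 310 (51.0%) against 25.3%. In both lists 158 members were unmerged, so that their end ranges were the same by the rule itself. With them, 168 members had the same end ranges in both lists.

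Contacts of a member were in most cases fewer in T30 than in T0. The ratio of T30 to T0 contacts had a median of 0.667 (quartiles 0.542 and 0.820) and ran from 0.300 to 2.82. It was below 1 for 518 loops, 1 for 20 and above 1 for 70. The median over all 1389 matched pairs of loops, which include the members and pairs with overlapping end ranges, was also 0.667. A matched pair is a T0 loop and a T30 loop whose end ranges overlap at both ends, each used a single time. By span, the median ratio was 0.613 at 20 to 50 kb, 0.600 at 50 to 100 kb, 0.652 at 100 to 200 kb, 0.701 at 200 to 500 kb and 0.769 at 500 to 1000 kb. The ratio is a comparison of 2 libraries whose depth is unknown, and so a ratio below 1 does not show a loss of contact in the cells. By the authors' own p-values, 298 members (49.0%) had the smaller p in T30, and 208 of them had fewer contacts there.

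Across the members, contacts in T0 and T30 went together, with Pearson's r of 0.574 and Spearman's rho of 0.591 over 608 loops. Contacts in both lists differed with span. Within classes r was 0.574 at 20 to 50 kb (66 loops), 0.470 at 50 to 100 kb (141), 0.460 at 100 to 200 kb (186), 0.403 at 200 to 500 kb (174) and 0.234 at 500 to 1000 kb (34). Loops that share an end are not independent points, and the plot of T30 against T0 contacts shows a wide cloud around the median ratio.

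**Figure D3:**
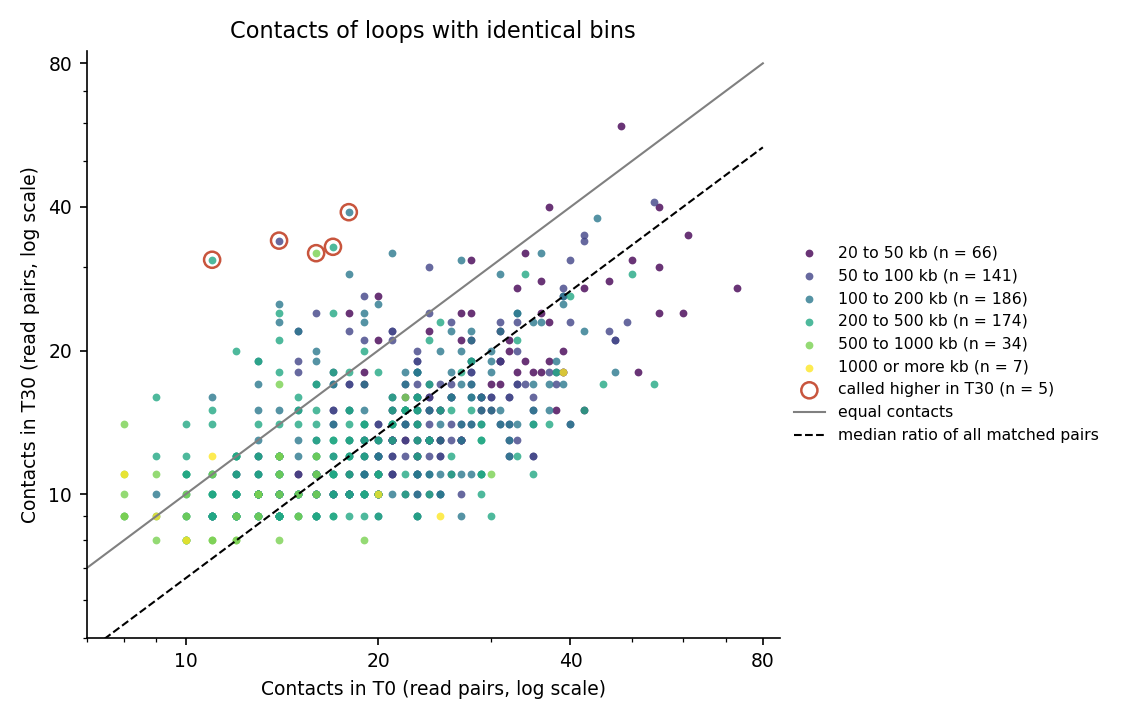
Contacts in T30 (vertical axis) against contacts in T0 (horizontal axis), in read pairs on log scales, for the 608 loops with identical bins, colored by span class. Most points lie below the grey line of equal contacts and around the dashed line of the median ratio of 0.667; the 5 circled loops were called higher in T30.

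The 10 members with most contacts in T0 spanned 25 to 50 kb, except a loop of 225 kb from MB21D2 with 54 contacts in T0 and 17 in T30. Another long loop, of 200 to 500 kb on chromosome 3, had 50 and 29 contacts. It tied in T0 with the last of the 10 and is not counted among them. The first, of 40 kb and with 73 contacts in T0 and 27 in T30, lay beside CALCOCO1, a gene for a coactivator and autophagy receptor, on chromosome 12 (53700001 to 53745000). The next, with 61 and 35, ran from a bin with SP6, a transcription factor gene, and the start of SCRN2, to a bin 6236 bp from SP2. A loop of 30 kb to the start of VWA5B2 had 60 and 24. A loop of 25 kb on chromosome 10, between MARVELD1 and ZFYVE27, had 55 and 24, and a loop of 40 kb from C16orf74 had 50 and 31. CDK18, a cyclin-dependent kinase gene, had a loop with 55 and 30 contacts, TNK2, a tyrosine kinase gene, had one with 55 and 40, and PAK2, a kinase gene downstream of small GTPases, had one with 51 and 18. In T30 the order was another. The loop of 20 kb between NDUFAF6, a gene for assembly of mitochondrial complex I, and PLEKHF2, an endosomal protein gene, came first with 48 contacts in T0 and 59 in T30. It was followed by the loop within GSE1 from 85555001 to 85610000 on chromosome 16, with 54 and 41. Of the 10 with most contacts in each list, only the loops of GSE1 just named, TNK2 and SCRN2 were in both sets of 10.

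To ask which members departed from the common ratio, each matched pair was compared with the median ratio by an exact two-sided binomial test, with Benjamini-Hochberg adjustment over all 1389 pairs. The test compares 2 libraries and not 2 conditions. Of the members, 5 were called higher in T30 at an adjusted p under 0.05, or 0.822%, and the background was 1.51% of all pairs. None was called lower, where the background was 0.072%, and the unadjusted p of the same binomial test was under 0.05 for 30 members in the higher direction and 11 in the lower. The shares of all pairs at that unadjusted p were 5.4% and 1.87%. A ratio of 2-fold or more above the median ratio was seen for 28 members, with 4.54% of all pairs as background, and 2-fold or more below it for 4, with 1.22%. As listing in both files already bounds the ratio, nothing is read from these counts. The calls rest on the scaling: with the ratio of all listed contacts as the reference, 0 members were higher and 54 lower, and with no scaling 0 and 15.

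The called loop with the highest ratio lay between genes. It joined 116390001 to 116395000 with 116660001 to 116665000 on chromosome 12, 270 kb apart, and had 11 contacts in T0 and 31 in T30. Relative to the median ratio this was a log2 difference of 2.08 (1.05 to 3.22, adjusted p = 0.0017 by the exact binomial test). Its ends lay 112308 bp from MED13L, a gene for a Mediator kinase module subunit, and 45171 bp from SPRING1, a regulator of cholesterol synthesis. On chromosome 8, a loop of 95 kb from C8orf34, a gene of little-known function, had 14 contacts in T0 and 34 in T30. The log2 difference was 1.87 (0.93 to 2.88, adjusted p = 0.00244, exact binomial test). Its ends differed in the number of their partners, where a partner is another bin joined to the same bin: the end outside the gene, at 68850001, had 1 in T0 and 16 in T30.

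CCND1, the cyclin D1 gene that drives entry into the cell cycle and is amplified or overexpressed in many luminal tumours, was the target of a called loop of 535 kb. It ran from 69105001 on chromosome 11, 14404 bp from TPCN2, to a bin in CCND1 at 69640001. It had 16 contacts in T0 and 32 in T30, a log2 difference of 1.58 (0.68 to 2.55, adjusted p = 0.0226, exact binomial test). The reference of 0.667 was not matched on span. Members of 500 to 1000 kb had a higher median ratio, 0.769, and the loop was not tested against that value. The other called loops began in the same bin of GSE1, 85380001 to 85385000 on chromosome 16. GSE1 codes for a subunit of a histone deacetylase and demethylase complex. The first went 175 kb to 85555001, still in GSE1, with 18 contacts in T0 and 39 in T30 and a log2 difference of 1.70 (0.86 to 2.59, adjusted p = 0.00244, exact binomial test). The second went 335 kb to a bin in C16orf74 with 17 and 33 contacts, a log2 difference of 1.54 (0.66 to 2.48, adjusted p = 0.021, exact binomial test).

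At the other end of the ranking, ratios of T30 to T0 contacts went down to 0.300, and no such loop passed the test. A member has to be listed in T30, where the lowest count was 8 contacts. The rule thus bounds low ratios, and nothing is read from the lack of lower calls. SORL1, a sorting receptor gene, had a loop of 280 kb with 30 contacts in T0 and 9 in T30. MB21D2 had a loop of 225 kb with 54 and 17, and its log2 difference was -1.08 (-1.96 to -0.27, adjusted p = 0.226, exact binomial test). RARRES1, a retinoid-responsive gene, had a loop of 70 kb with 35 and 12, and a loop of 65 kb from 196620001 on chromosome 3 had the same contacts and so the same ratio of 0.343. A loop of 355 kb from beside SMIM13 on chromosome 6 had 35 and 11, and a loop of 125 kb on chromosome 2, between SLC1A4 and CEP68, had 27 and 9. Contacts of these loops in T30 were 9 to 17, so their ratios rest on few read pairs.

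Genes overlapped an end of most members. Of the 608, 228 (37.5%, 33.6 to 41.5) had both ends in a protein-coding gene, 265 had 1 end and 115 had none. Other loops, weighted to the members' spans, had both ends in genes for 36.8% in T0 and 38.7% in T30. Both ends lay in the same gene for 77 members (12.7%, 10.1 to 15.6), against 11.2% and 15.5%. Both ends held an end of a gene for 44 members (7.24%, 5.31 to 9.59), against 5.22% and 3.85%, both below the members' interval. Start sites of the 15813 genes in the promoter table were at exactly 1 end for 26.5% of the members (23.0 to 30.2). The weighted shares of other loops were 25.8% in T0 and 19.4% in T30. The T0 value lay within the members' interval and the T30 value below it. In all, 569 of 19974 protein-coding genes, or 2.85%, had an identical loop in the gene, where 3938 (19.7%) had any T0 loop and 4694 (23.5%) any T30 loop. For 484 of the 569 genes it was a single loop.

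Among the 12 loops with start sites at both ends, the NR6A1 and WDR38 loop of 80 kb had most contacts, 42 in T0 and 35 in T30. The loop of 175 kb between PIK3CA and ZNF639 had 28 and 17. MRPL24, a mitochondrial ribosome gene, was joined to PRCC over 25 kb with 36 and 18 contacts. DVL3, a Wnt signalling gene, was joined over 90 kb to the bin of ALG3, a glycosylation gene, with 25 and 15. NCOA5, a nuclear receptor coregulator gene, was joined to SLC12A5 over 65 kb with 20 and 11. KMT5A, a histone methyltransferase gene, was joined to TMED2 over 200 kb with 13 and 10. Every one of the 12 had fewer contacts in T30, with ratios of 0.455 to 0.885. The same held for 85.2% of all members, and the ratios of the 12 lay on both sides of the median ratio of 0.667.

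Of the genes of luminal breast identity, 6 of 22 had an identical loop, and 12 had a loop in both lists. GATA3 had 4 identical loops of its 6 in T0 and 7 in T30. They reached 180 kb to TAF3 (14 and 10 contacts) and 1125, 1130 and 1250 kb to a gene-poor stretch on the other side. The long ones had 9 and 9, 10 and 8, and 8 and 11 contacts in T0 and T30. The 3 thus had 8 to 11 contacts in both lists, close to the lowest count listed, which was 7 in T0 and 8 in T30. KRT8 and KRT18, the paired keratins of simple epithelia, overlap in the gene annotation. A loop of 45 kb, with 30 and 17 contacts, joined a bin inside KRT8 to a bin in KRT18. CDH1, the epithelial cadherin, was joined to CDH3, the neighbouring cadherin gene, over 100 kb with 19 and 11. CLDN4 had a loop of 90 kb with 18 and 13, and ERBB3, a receptor of the EGF receptor family, one of 40 kb with 25 and 15. None of the 20 basal and mesenchymal genes had an identical loop, while a loop was listed at 8 of them in T0 and at 7 in T30, with 4 shared. Of all protein-coding genes 2.85% had an identical loop, and none of 16 housekeeping genes did, so nothing is read from this absence. Expression was not part of these files, so the luminal state of the cells was not checked here, and these counts are no check of it. Of 20 genes of other tissues, PECAM1, an endothelial adhesion gene, had an identical loop, with 46 and 22 contacts.

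Of 32 progestin target genes, 17 had a T0 loop and 26 a T30 loop, 13 had one in each list and 4 had an identical loop. Of all protein-coding genes, 19.7% had a T0 loop, 23.5% a T30 loop and 2.85% an identical loop. T30 listed more loops than T0, and the gene list was chosen with results of these data known, so nothing is read from these counts. BCL6 had 5 identical loops, of 65, 300, 520, 1185 and 1215 kb, out of 17 in T0 and 12 in T30. They all ran in the direction of LPP, the large neighbouring gene: the loop of 520 kb ended in it, and that of 1185 kb ended 34330 bp from it. The loop of 65 kb had 23 and 19 contacts, and that of 300 kb had 19 and 10. The loops of 520 and 1185 kb had 9 and 11, and 11 and 12, and the longest had 20 and 10. MYC, a growth-promoting transcription factor, had a loop of 135 kb with 14 contacts in T0 and 25 in T30. Its log2 difference of 1.42 did not pass the test (adjusted p = 0.148, exact binomial test). ELF5, a transcription factor of the alveolar lineage, had a loop of 125 kb with 14 and 10. CCND1, described above, is in this list and in those of estrogen response and the cell cycle. The called CCND1 loop was the single member of the lists past the threshold.

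The other lists were as follows. Of 23 estrogen response genes, 4 had one: besides CCND1 and MYC, IGFBP4, a binding protein of insulin-like growth factors, had a loop of 90 kb with 25 and 15 contacts, and ABCC5, an export pump gene, one of 120 kb with 35 and 23. Of 20 growth factor signalling genes, 3 had one: ERBB3, PIK3CA and FGFR1, a fibroblast growth factor receptor gene whose loop of 295 kb had 28 and 15. Of 20 coregulators and chromatin genes, 3 had one, and 2 of these are described. NCOA2, a coactivator of steroid receptors, had 29 and 11 contacts over 385 kb. MED13L had 2 loops, with 12 and 9 contacts over 225 kb and 10 and 14 over 385 kb. The latter ended in the bin at 116660001 that is also the end of the called loop on chromosome 12. Among 20 cell cycle genes CCND1 and MYC had one, and among 16 housekeeping genes none. Over all lists, 18 of 180 distinct genes (10%) had an identical loop, and the share of all protein-coding genes was 2.85%. The lists were chosen with results of these data known, so this share is a description.

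By chromosome, chromosome 3 held most members, 98 of 608 or 16.1%, while it held 12.3% of the loops of each list. Its members were 11.3% of the T0 loops there (9.25 to 13.6) and 8.33% of the T30 loops (6.81 to 10.1). Chromosome 1 held 62 members, chromosome 17 held 59 and chromosome 12 held 50. Chromosomes 11 and 16 held 40 each. The share of T0 loops and that of T30 loops did not follow the same order: on chromosome 9 the shares were 9.93% and 3.91%, whereas on chromosome 12 they were 8.03% and 8.71%. Chromosome X had no member among 32 T0 and 52 T30 loops. In windows of 5 Mb, the most members lay in 85000001 to 90000000 of chromosome 16, with 27 of 133 T0 and 309 T30 loops. The next were 190000001 to 195000000 of chromosome 3 with 22 and 180000001 to 185000000 of the same chromosome with 21. The upper end of chromosome 3 thus held the VWA5B2, TNK2, PAK2, MB21D2, BCL6, PIK3CA and FAM43A loops named here.

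**Figure D4:**
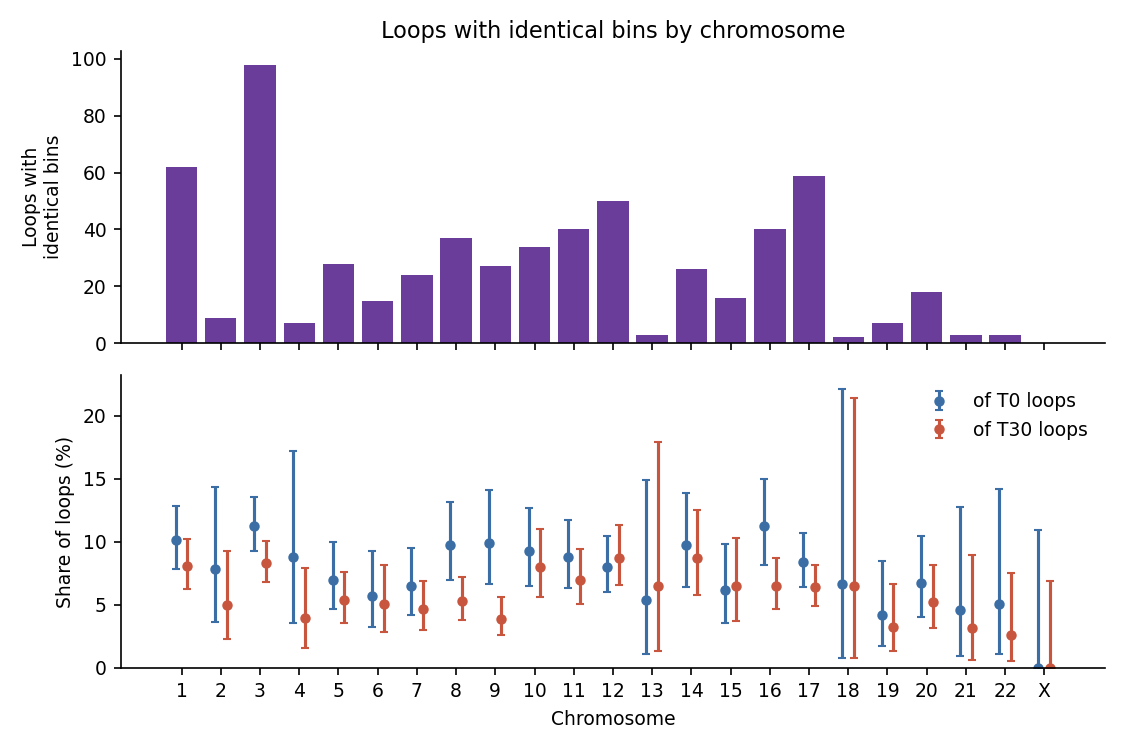
Number of loops with identical bins per chromosome (top) and their share of the T0 loops (blue) and T30 loops (red) of the chromosome in percent (bottom), with 95% Clopper-Pearson intervals. Chromosome 3 has the most, 98, and chromosome X has none.

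Many members met other loops at their ends, and in T0 a larger share of them than of other loops lay at a hub. A hub here is a bin with 5 or more partners. In T0, 158 members (26.0%, 22.5 to 29.7) had a hub at either end, against 17.6% of the other loops weighted to the members' spans. The difference was largest at 200 to 500 kb, with 47.1% (39.5 to 54.8) of 174 members and 26.9% (25.1 to 28.7) of 2349 others. In T30 the shares were 21.7% (18.5 to 25.2) and 21.6%. Ends of members had on average 1.60 further partners in T0, where the weighted value of other loops was 1.12, and 1.76 in T30, where it was 1.46. Part of this rests on GSE1. Without the loops of its region the shares at a hub were 22.9% and 16.8% in T0 and 18.5% and 20.2% in T30, and the further partners in T30 were 1.30 for both members and others.

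The 608 loops used 1093 distinct bins, and 1002 of these held a single member. The bins had 2441 partners in T0 and 2423 in T30. Of these, 1216 were the same in both lists, which are the members counted from each of their ends. That is 49.8% of the T0 partners and 50.2% of the T30 partners of these bins, and the others were listed in a single library. Of the bins, 112 were hubs in T0 and 102 were hubs in T30, with 31 hubs in both. Over the whole lists there were 242 hubs for T0 and 302 for T30, with 37 shared, so 31 of the 37 shared hubs held a member. Of all 3077 bins with a loop in both lists, 1093 held a member. A bin with more partners has more chances of an identical loop, so nothing is read from the count of shared hubs. From T0 to T30, 282 bins had more partners, 354 had fewer and 457 had the same number.

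Joined through shared bins, the members fell into 491 groups, of which 425 were single loops and 4 had 5 or more loops. The largest by far was at GSE1 and C16orf74 on chromosome 16, with 23 loops over 21 bins between 85350001 and 85780000. Its contacts summed to 585 in T0 and 485 in T30. The gene GSE1 had 23 members at its bins, of its 82 loops in T0 and 190 in T30, and C16orf74 had 8 of 20 and 32. The member bins differed in how their partners changed in number. The bin at 85380001, the start of the called loops, had 8 partners in T0 and 24 in T30, and the bin at 85555001 had 7 and 22. In contrast, the bin at 85415001 had 21 and 24, and that at 85715001, in C16orf74, had 12 and 13. Contacts at their members did not follow the number of partners at every bin. The 4 members at 85380001 had 14, 14, 17 and 18 in T0 and 21, 18, 33 and 39 in T30, so all 4 had more contacts in T30. The 5 members at 85555001, which include the first called loop, summed to 158 and 149. At 85365001, with 7 partners in T0 and 16 in T30, 3 members summed to 81 and 41. The 6 members at 85415001 summed to 141 and 87.

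**Figure D5:**
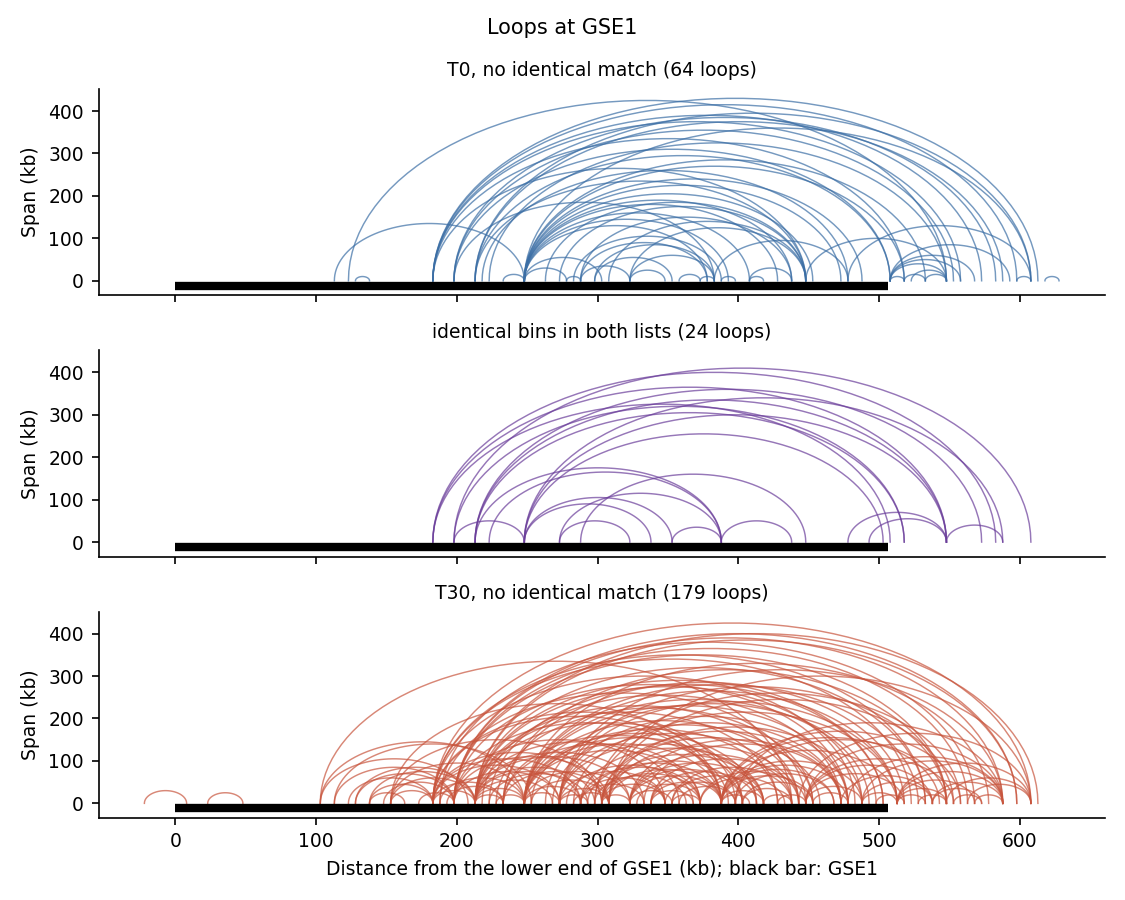
Loops at GSE1 as arcs between the bins they join, for T0 loops without an identical match (top, 64 loops), loops with identical bins (middle, 24) and T30 loops without an identical match (bottom, 179); the horizontal axis is distance in kb from the lower end of GSE1, the black bar is the gene, and arc height is the span in kb. The identical loops lie within the gene or join it to the stretch above its upper end, where 1 loop stays outside the gene, and T30 has more arcs without a match than T0.

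The next group, of 7 loops and 7 bins between 184370001 and 184545000 of chromosome 3, ran from THPO, the gene of the platelet growth factor thrombopoietin, to a stretch below EPHB3, an ephrin receptor gene. It had 241 contacts in T0 and 153 in T30. Its bin at 184415001, in no gene and 24262 bp from CHRD, held 4 members with 42 and 15, 39 and 26, 40 and 31, and 37 and 17 contacts. The group at FAM43A had 5 loops, all from the bin with its start site, at 194685001 to 194690000, to bins 250 to 570 kb away, up to XXYLT1. They had 12 to 29 contacts in T0 and 9 to 16 in T30, summing to 93 and 61. This bin was a hub in both lists, with 12 partners in T0 and 15 in T30. DLG1, a scaffold protein gene, had 5 members towards BDH1, with 17 to 29 contacts in T0 and 9 to 11 in T30. Of all members 85.2% had fewer contacts in T30, and none was called lower, but listing in both lists bounds how low a ratio can be. FGF12, a gene of the fibroblast growth factor family, had 5 members with 16 to 45 and 10 to 18.

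On chromosome 8 the median ratio of 37 members was 0.682, and its groups at NDUFAF6 and TRPS1 had higher medians. At NDUFAF6, PLEKHF2, CFAP418 and INTS8, 5 loops had 127 contacts in T0 and 129 in T30, with a median ratio of 1.1. The bin at 95110001 in NDUFAF6 had 3 partners in T0 and 17 in T30, and its 3 members had 10, 48 and 18 contacts in T0 and 11, 59 and 29 in T30. All 3 had more contacts in T30. The bin at 95130001, in PLEKHF2, had 3 partners in T0 and 4 in T30, and its members besides the one shared with NDUFAF6 at 95110001 had 22 and 15, and 29 and 15 contacts, fewer in T30. Near TRPS1, a GATA-type transcription factor gene active in breast epithelium, 4 loops over 790 kb had 53 and 62 contacts, with a median ratio of 1.31. Of these, 3 had more contacts in T30, and the other had 16 in T0 and 10 in T30. Its bin at 115835001, 166026 bp outside the gene, had 3 partners in T0 and 11 in T30. These ratios are not scaled, the median ratio of all matched pairs was 0.667, and no loop of these groups passed the test.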

How the data were processed

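HiChIP was measured in 2 libraries of T47D cells, labelled T0 and T30, and the rest of the 23 samples were not analysed here. The submitters' processing notes name Bowtie, hg38 and GRCh38; versions, other tools, loop-calling settings and pooling were not given in the sources used here. Each contact value is a whole-number count of read pairs between 5 kb bins, deposited without normalization. Per the file headers, the deposited p-value and q-value of a loop are bias-corrected, and all q-values were under 0.05. The authors also give a fraction per merged cluster, which was not used. A contact count per merged cluster is deposited too, but the contacts given here are those of the listed bin pair alone. Other deposited columns give the positions of bins and merged ranges.

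Members were matched on chromosome and both bin starts. Others were loops of the same span classes without such a match, with shares weighted to the members' classes. Genes were 19974 protein-coding RefSeq genes of GRCh38.p14, counted where a bin overlapped them; 15813 had a window in the RefSeq promoter table. Intervals are Clopper-Pearson at 95%. An exact binomial test (two-sided) compared each ratio with the median over 1389 pairs, with Benjamini-Hochberg adjustment. Bins were written with starts counted from 1.

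The text draws on the loops with most contacts per list, the highest and lowest ratios among loops with at least 30 contacts summed, called loops, the bins and genes with most members, the 5 longest, and members of 9 gene lists. The values of 1 list member are not reported here. The groups of loops at TRPS1 and on chromosome 3, the start-site pairs and the printed promoters were chosen after their values were seen. The members, lists and tests were chosen with earlier results of these data known. Alternatives were stricter q-values and contacts, looser matching, other scalings, gene definitions and hub sizes. Steps were tested on simulated data. The work used scipy 1.17.1, pandas 2.3.3 and numpy 2.4.6 in Python 3.11.15, with figures from matplotlib 3.10.9.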

Additional observations from a re-analysis of the deposited data

How the results depend on the processing

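The number of identical loops depended on the rule: 390 had a q-value under 0.01 in both lists, 531 had at least 10 contacts in both, and all 608 spanned at least 20 kb. Matching within 1 bin gave 1824 T0 loops, within 2 bins 2573, and by overlapping end ranges 1570 T0 and 1573 T30 loops. Without loops near a loop of the other list, 83.4% of the members lay above the median of the other T0 loops. Scaled by the ratio of summed contacts, 0 members were called higher and 54 lower in the exact binomial test, and without scaling 0 and 15; at an unadjusted p under 0.05 in that test, 5 were higher and 156 lower with the former, and 5 and 110 with the latter. Both ends lay in genes for 55.1% with genes widened by 10 kb, at a gene's end for 7.24%, and at start sites, chosen with the data in view, for 1.97%. The weighted shares of other T0 loops were 58.6%, 5.22% and 2.25% in that order. Those of other T30 loops were 55.6%, 3.85% and 1.53%. With hubs of 3 or more partners, 57.2% of members in T0 and 44.7% in T30 were at a hub, and with 10 or more 4.28% and 7.89%. The weighted shares of other loops were 50.4% in T0 and 43.3% in T30 with 3 or more. With 10 or more they were 1.54% and 6.94%. Without the GSE1 region, also chosen with the data in view, the share of members at a hub of 5 or more partners was 18.5% in T30 and 22.9% in T0. The weighted shares of other loops were then 20.2% and 16.8%. The median ratio was 0.652 with at least 10 contacts in both lists. No paired analysis was possible because each condition was 1 library, and no replicate could be left out. Low contacts limit single loops: the lowest count listed was 7 contacts in T0 and 8 in T30.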
